A study of Mus musculus with 110 samples.

Results

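Liver RNA of mice that received both stimuli, a methionine-restricted diet and cold exposure (MetR_CE), was compared with that of untreated mice (Ctrl_RT). All 7 MetR_CE and all 7 Ctrl_RT liver libraries entered, and a gene was a member when its counts over the 28 liver libraries summed to 10 or more, which kept 22143 of the 56884 genes in the liver table (38.93%). The series holds 110 libraries of liver and adipose depots in all. The mice were wild-type C57BL/6N males of 16 weeks, housed singly, and each library came from 1 mouse. Ctrl_RT mice ate a control diet with 0.86% methionine, as the series' design text gives it (the study's methods give a slightly lower content), for 7 days at 22 °C. MetR_CE mice ate a diet with 0.12% methionine for 7 days at 22 °C and then spent 24 h at 4 °C. By the study's methods the cold was an added day, so cold mice were also kept 24 h longer than mice at 22 °C. That added time cannot be told apart from the cold. Both diets held 0% cysteine, so that the control mice too were without dietary cysteine. Mice with a single stimulus, Ctrl_CE (control diet, 24 h at 4 °C) and MetR_RT (restricted diet at 22 °C), supplied 7 libraries each to the same fit and are used below where MetR_CE is set beside them. The question was what the liver transcriptome of the combination looks like against no treatment.

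Methionine is an essential sulfur amino acid, and the liver turns most of it into S-adenosylmethionine, the main methyl donor, and onward into cysteine and glutathione. When amino acids run short, the kinase GCN2 phosphorylates eIF2α, and translation of the transcription factor ATF4 increases, which switches on the integrated stress response, a set of genes for amino acid synthesis and uptake and for hormones such as FGF21. Cold makes the animal burn fuel for heat, and the liver then supplies glucose, ketone bodies and lipoproteins and takes up fatty acids that adipose tissue releases. Hepatocytes also secrete most plasma proteins, among them complement factors, clotting factors and the acute phase proteins whose transcription IL-6 drives through STAT3.

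Depth covered a similar range in both groups. Library totals spanned 12601244 to 16512194 counts in Ctrl_RT and 12113437 to 17950183 in MetR_CE, and an exact two-sided permutation test gave p = 0.441. Within Ctrl_RT and within MetR_CE no pair of libraries was close enough in its counts to be 1 library deposited more than once. Other pairs were not compared. The hepatocyte genes Alb, Ttr and Apob were among the abundant transcripts of every library, whereas summed markers of adipocytes (31.3 to 56.9 CPM), of pancreatic acinar and gut cells (42.9 to 93.5 CPM) and of skeletal muscle (6.40 to 18.4 CPM) were low in all 14. Levels are CPM, a gene's share of its library's counts after TMM normalization. In a bulk tissue of this kind, fewer cells of a type and less RNA per cell cannot be told apart.

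MetR_CE had 1385 genes upregulated (6.25% of those tested) and 1599 downregulated (7.22%) against Ctrl_RT. A call needed an adjusted p below 0.05 together with a fold change of 1.5 or more in either direction. The test was edgeR's quasi-likelihood test with Benjamini-Hochberg adjustment, which stands behind every adjusted p of a single gene below. The median log2 fold change was 0.96 among upregulated and -1.21 among downregulated genes, beside -0.04 over all genes tested. A change of at least 4-fold was seen in 144 upregulated and 418 downregulated genes. Genes whose 7 MetR_CE libraries all lay above the 7 Ctrl_RT libraries numbered 1398 (6.31%), and genes whose libraries all lay below numbered 1252 (5.65%). The balance of the calls varied with the level, taken as the mean of the higher group. Of 151 genes above 1000 CPM 47 fell (31.1%) and 16 rose (10.6%), and of 1488 genes between 100 and 1000 CPM 127 fell (8.53%) and 158 rose (10.6%). Of 6611 genes between 10 and 100 CPM 334 fell (5.05%) and 435 rose (6.58%), and of 4494 genes between 1 and 10 CPM 552 fell (12.3%) and 537 rose (11.9%). Of 9399 genes under 1 CPM 539 fell (5.73%) and 239 rose (2.54%). The 10 genes with the highest level together took 153650 to 192938 CPM in Ctrl_RT and 120597 to 133249 CPM in MetR_CE, without overlap (exact two-sided permutation p = 0.000583, the smallest that 7 against 7 can give, adjusted over 17 summed levels 0.00142).

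**Figure D1:**
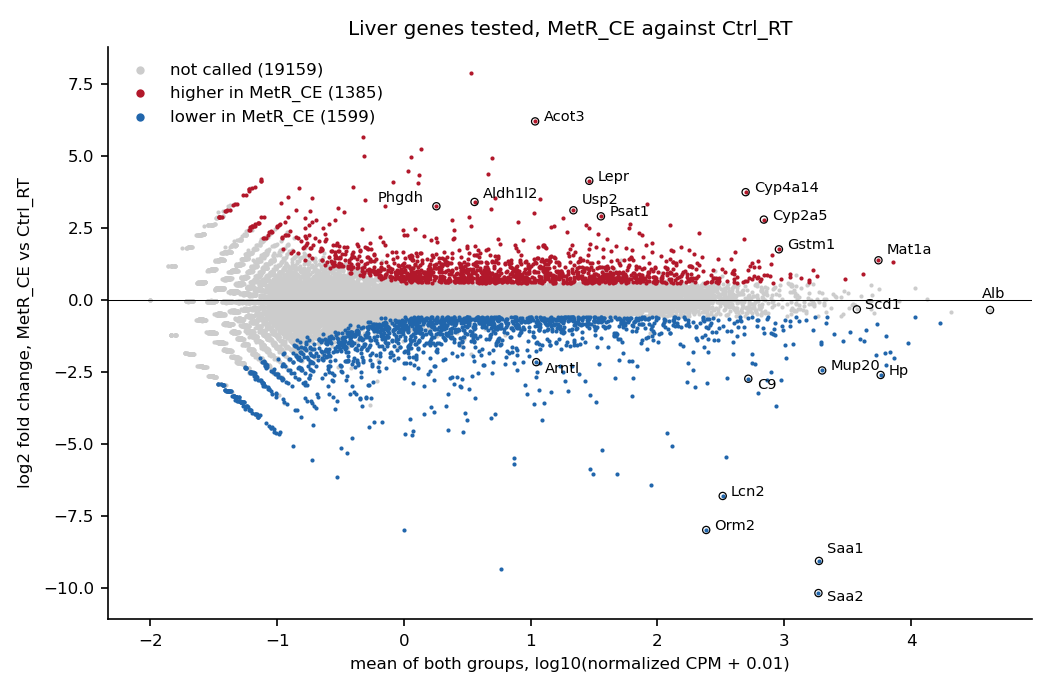
Each point is a gene, placed by its mean level in both groups (log10 of CPM + 0.01) and its log2 fold change in MetR_CE against Ctrl_RT, with called genes coloured and selected genes named. The 1385 upregulated genes reach a log2 fold change of 7.87 (Cyp2b9, not labelled, a fitted value that depends on the prior count because 6 of 7 Ctrl_RT libraries are at 0), and the 1599 downregulated genes reach -10.17 (Saa2).

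Acute phase genes made up 4 of the 6 largest decreases among genes at 5 CPM or more. Saa1 and Saa2, which encode serum amyloid A, an apolipoprotein that the liver pours out during inflammation, were abundant in each Ctrl_RT library and nearly gone in MetR_CE. Saa2 ran from 1180.5 to 9274 CPM in Ctrl_RT (median 1716) and from 1.16 to 7.21 CPM in MetR_CE (median 3.10), a log2 fold change of -10.17 ± 1.30 (adjusted p = 4.03e-07). Saa1 ran from 1759 to 8424 CPM in Ctrl_RT (median 2000.1) and from 1.54 to 13.01 CPM in MetR_CE (median 7.38), a log2 fold change of -9.06 ± 1.20 (adjusted p = 6.72e-07). Both groups were far apart, and within Ctrl_RT replicates 1, 5 and 6 were higher than the other 4 mice. Saa1 and Saa2 are near-identical, so the split of their reads between both genes is uncertain. Orm2, an α1-acid glycoprotein, ran from 100.4 to 1412 CPM in Ctrl_RT (median 200.5) and from 1.56 to 2.48 CPM in MetR_CE (median 1.77), a log2 fold change of -7.98 ± 1.02 (adjusted p = 3.61e-07). Lcn2, which encodes the iron-siderophore binding protein lipocalin 2, ran from 180.1 to 1285 CPM in Ctrl_RT (median 513) and from 2.85 to 8.26 CPM in MetR_CE (median 6.31), a log2 fold change of -6.80 ± 0.98 (adjusted p = 2.54e-06). The same 3 Ctrl_RT mice held the highest values of both genes, and no MetR_CE library reached the lowest Ctrl_RT library.

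Of 36 acute phase and IL-6 response genes tested, 28 were downregulated and 1 was upregulated, with a median log2 fold change of -1.82. Hp, which encodes the hemoglobin scavenger haptoglobin, was among the most abundant of them and ran from 7109.8 to 16013 CPM in Ctrl_RT (median 8649) and from 1257 to 1806 CPM in MetR_CE (median 1723), a log2 fold change of -2.61 ± 0.32 (adjusted p = 1.82e-07). Its highest MetR_CE library lay below the lowest Ctrl_RT library by more than the whole MetR_CE range. Saa3 (log2 fold change -5.86, or -5.09 without Ctrl_RT replicate 1), Saa4 (-2.71), Orm1 (-3.70) and the protease inhibitor Serpina3k (-1.495) fell as well, as did Pigr, the receptor that carries immunoglobulin A into bile (-0.92). Outside that list, Prtn3, a neutrophil serine protease, was at 0 CPM in 6 of 7 MetR_CE libraries and at 0.0770 CPM in the other, against 2.69 to 39.5 CPM in Ctrl_RT. Serpina4-ps1, an annotated pseudogene, ran from 36.5 to 325 CPM in Ctrl_RT (median 206) and from 0.238 to 5.86 CPM in MetR_CE (median 1.46), a log2 fold change of -6.42 ± 0.75 (adjusted p = 7.75e-08).

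Genes of terminal complement fell as well. Of 48 complement and coagulation genes 23 fell and 0 rose, with a median log2 fold change of -0.56. The clotting factor gene F8, which rose, is not on this list but among the endothelial markers below. C9, the pore-forming unit of the membrane attack complex, ran from 710.3 to 1102 CPM in Ctrl_RT (median 918) and from 76.2 to 176 CPM in MetR_CE (median 128), a log2 fold change of -2.74 ± 0.17 (adjusted p = 6.82e-13). C6, another component of that complex, ran from 273 to 578 CPM in Ctrl_RT (median 459) and from 24.0 to 79.6 CPM in MetR_CE (median 61.6), a log2 fold change of -2.88 ± 0.20 (adjusted p = 1.05e-11). The C8 chains C8a (log2 fold change -2.50 ± 0.17, adjusted p = 3.55e-12) and C8b (log2 fold change -1.86 ± 0.14, adjusted p = 1.98e-11), Hc, which encodes C5 (log2 fold change -1.52 ± 0.12, adjusted p = 5.3e-11), and the C3b-cleaving protease Cfi (log2 fold change -0.96 ± 0.08, adjusted p = 5.9e-11) were all lower without overlap of the groups. In C6, C8a, C8b and C9 MetR_CE replicate 1 was the lowest library by a wide gap. Fga, the fibrinogen α chain, had medians of 10736 CPM in Ctrl_RT and 3019 CPM in MetR_CE (log2 fold change -1.80 ± 0.21, adjusted p = 1.03e-07), while F2, the prothrombin gene, was not called, with a log2 fold change of -0.27 (adjusted p = 0.000692). C3 itself, at 12418 CPM the most abundant complement transcript of those named, was just past the threshold (log2 fold change -0.60 ± 0.19, adjusted p = 0.016), and 6 of 24 alternatives, 3 of them with 1 library left out (Ctrl_RT replicate 5 or 6 or MetR_CE replicate 7), ended its call.

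**Figure D2:**
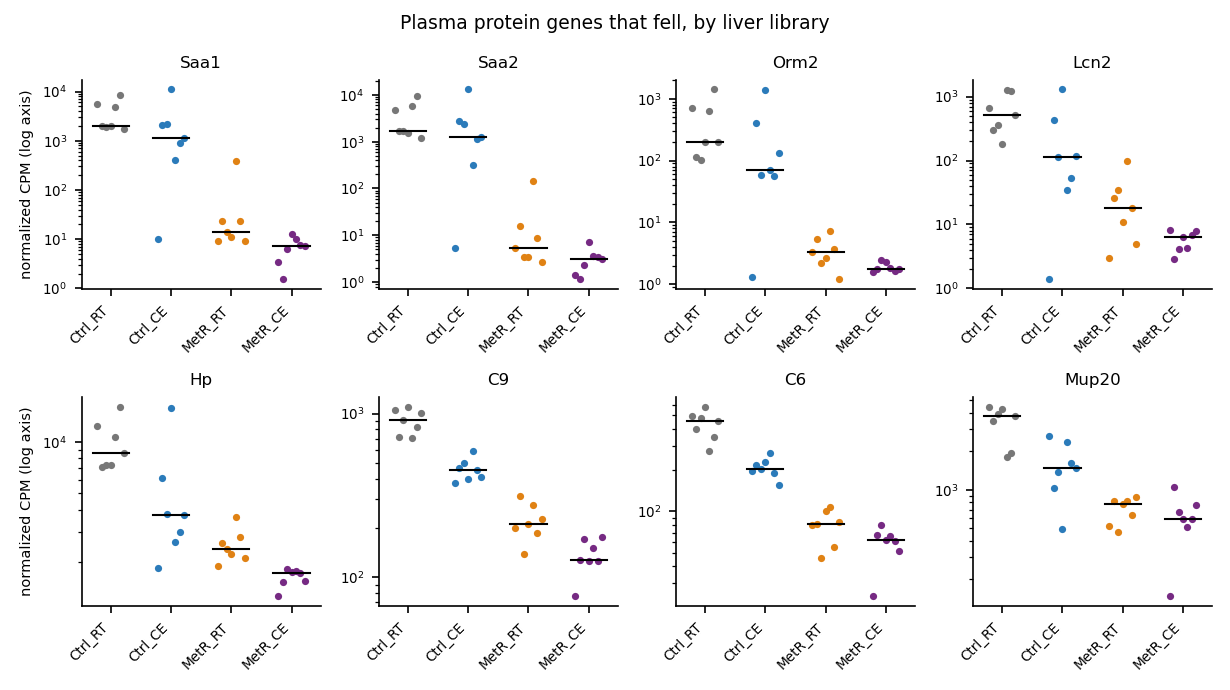
Levels of 8 plasma or urinary protein genes in CPM on a log axis, with 1 point per library and a line at each group's median, in all 4 liver groups. Saa1, Saa2, Orm2, Lcn2 and Hp are below every Ctrl_RT library in all 7 MetR_CE libraries, and 1 Ctrl_CE library (replicate 1) lies far below the others of its group in Saa1, Saa2 and Orm2.

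Among the remaining downregulated genes with the smallest p were Serpina11, a serpin (log2 fold change -1.48 ± 0.10, adjusted p = 1.76e-12), Wfdc21, a WAP domain gene (log2 fold change -1.62 ± 0.13, adjusted p = 8.05e-11), Gpx1, which encodes a selenium-dependent glutathione peroxidase (log2 fold change -1.37 ± 0.11, adjusted p = 9.63e-11), 2200002D01Rik (log2 fold change -2.17 ± 0.15, adjusted p = 6.47e-12) and the pseudogene Cyp21a2-ps (log2 fold change -3.20 ± 0.21, adjusted p = 1.76e-12). None of these overlapped between the groups.

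Major urinary proteins (MUPs) are pheromone carriers that male mouse liver makes in large amounts under pulsatile growth hormone. Of 22 Mup genes tested 21 fell and 1, Mup2, rose. Their summed level was 15684 to 25205 CPM in Ctrl_RT and 4011 to 10101 CPM in MetR_CE, without overlap (exact two-sided permutation p = 0.000583, adjusted 0.00142). Reads are easily split among Mup genes because they are near copies, and the value of a single member, Mup2 included, is uncertain. Mup20, the darcin pheromone, ran from 1811 to 4452 CPM in Ctrl_RT (median 3766) and from 147 to 1051 CPM in MetR_CE (median 596), a log2 fold change of -2.45 ± 0.32 (adjusted p = 4.51e-07), with MetR_CE replicate 1 the lowest. A list of 34 MUP and other sex-biased liver genes, most of them male-biased, had 20 that fell and 8 that rose, with a median log2 fold change of -1.10, and the risers included the female-biased Cyp2b9, Cyp2a4 and Cux2. C6 and C8a are on this list as well as among the complement genes. Nudt7, which encodes a peroxisomal coenzyme A diphosphatase, was among those that fell (log2 fold change -1.15 ± 0.15, adjusted p = 3.31e-07), as was Cyp4a12a, an arachidonic acid hydroxylase (log2 fold change -1.72 ± 0.41, adjusted p = 0.00154), whose groups overlapped. Growth hormone receptor (Ghr, -0.39, adjusted p = 0.00189) and Igf1 (-0.24, adjusted p = 0.0632) were not called. Cyp2b9, a P450 with female-biased expression, was at 0 CPM in 6 of 7 Ctrl_RT libraries and at 0.138 CPM in the other, and spanned 0.231 to 13.5 CPM in MetR_CE. Cux2, a transcription factor of female-biased liver expression, ran from 0.0780 to 0.915 CPM in Ctrl_RT (median 0.452) and from 0.965 to 36.9 CPM in MetR_CE (median 2.38), a log2 fold change of 4.36 ± 0.92 (adjusted p = 0.000441), with 36.9 CPM in MetR_CE replicate 1 and 14.2 CPM in the next highest library. Without that library its log2 fold change was 3.27.

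Genes of the amino acid response rose in part. Of 35 integrated stress response effectors 12 were upregulated and 1 was downregulated, with a median log2 fold change of 0.26. Asns, which encodes asparagine synthetase, ran from 23.2 to 44.2 CPM in Ctrl_RT (median 30.6) and from 59.8 to 125 CPM in MetR_CE (median 86.8), a log2 fold change of 1.501 ± 0.20 (adjusted p = 6.71e-07). Its lowest MetR_CE library lay above the highest Ctrl_RT library. Vldlr, a lipoprotein receptor gene, ran from 0.580 to 1.66 CPM in Ctrl_RT (median 0.896) and from 6.09 to 10.6 CPM in MetR_CE (median 8.48), a log2 fold change of 3.14 ± 0.21 (adjusted p = 2.97e-12). Trib3, a pseudokinase that restrains ATF4 and AKT, ran from 3.93 to 24.7 CPM in Ctrl_RT (median 12.8) and from 17.8 to 42.6 CPM in MetR_CE (median 26.7), a log2 fold change of 0.94 ± 0.26 (adjusted p = 0.00558), with overlap. Slc3a2, the heavy chain of several amino acid exchangers (log2 fold change 1.07 ± 0.13, adjusted p = 1e-07), Iars, the cytosolic isoleucyl-tRNA synthetase (log2 fold change 0.72 ± 0.08, adjusted p = 4.3e-08), and Stbd1, a glycogen-binding protein (log2 fold change 0.76 ± 0.09, adjusted p = 7.73e-08), did not overlap. The transcripts of Atf4 itself (0.05, adjusted p = 0.758) and of Ddit3, which encodes CHOP (-0.04, adjusted p = 0.891), were not called.

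Fgf21, a liver hormone of nutrient stress, varied widely within both groups. It ran from 1.24 to 11.7 CPM in Ctrl_RT (median 2.99) and from 3.36 to 61.1 CPM in MetR_CE (median 10.6), and the ranges overlapped. The difference was past the threshold (log2 fold change 1.901 ± 0.72, adjusted p = 0.0429) but was lost in 12 of 24 alternatives, 8 of them with 1 library left out (Ctrl_RT replicate 1, 3, 4, 6 or 7 or MetR_CE replicate 1, 2 or 4). Without MetR_CE replicate 1, the library with the highest value, the log2 fold change was 1.27 (adjusted p = 0.191).

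ATF4 and C/EBP factors bind composite elements with the letters TGATGNAA, and the antioxidant response element that NRF2 binds holds TGACNNNGC. Promoter windows of RefSeq (GRCm38.p6, 250 bases before to 50 after the start) were searched for both on either strand. In 32851 windows TGATGNAA occurred in 3.97% and TGACNNNGC in 12.4%. Of the 30 stress response effectors tested that have a window, 14 held TGATGNAA and 7 TGACNNNGC, and of the 12 called up 9 and 3. A gene was counted here when any of its windows matched, whereas the shares above are of single windows. For 60 glutathione transferase and phase II genes the numbers were 1 and 8, and for 44 P450 genes 1 and 2. A match is a description of the letters and no evidence of binding. The windows of the 5 named stress response genes with a TGATGNAA match are printed below 5′ to 3′ on the strand of the gene. Capitals mark every match, on either strand, of TGATGNAA or TGACNNNGC.
Asns (chr6:7693160-7693459, minus strand): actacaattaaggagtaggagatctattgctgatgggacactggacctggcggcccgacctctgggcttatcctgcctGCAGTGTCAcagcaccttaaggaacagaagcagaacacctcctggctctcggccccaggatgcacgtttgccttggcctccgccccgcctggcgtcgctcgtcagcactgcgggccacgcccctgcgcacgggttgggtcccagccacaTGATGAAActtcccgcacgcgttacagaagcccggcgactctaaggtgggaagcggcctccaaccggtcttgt
Vldlr (chr19:27216770-27217069, plus strand): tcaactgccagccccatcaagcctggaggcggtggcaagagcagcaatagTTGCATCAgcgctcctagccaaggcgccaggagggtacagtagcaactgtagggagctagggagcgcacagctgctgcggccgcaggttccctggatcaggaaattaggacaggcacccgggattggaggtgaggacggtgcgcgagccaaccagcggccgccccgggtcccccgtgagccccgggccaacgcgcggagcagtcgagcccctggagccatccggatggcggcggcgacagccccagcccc
Trib3 (chr2:152344011-152344310, minus strand): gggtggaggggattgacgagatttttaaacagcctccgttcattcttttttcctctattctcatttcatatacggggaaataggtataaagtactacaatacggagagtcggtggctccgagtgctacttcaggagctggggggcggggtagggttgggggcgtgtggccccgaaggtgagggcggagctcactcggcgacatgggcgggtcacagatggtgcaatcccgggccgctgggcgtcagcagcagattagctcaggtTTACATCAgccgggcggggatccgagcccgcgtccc
Iars (chr13:49681880-49682179, plus strand): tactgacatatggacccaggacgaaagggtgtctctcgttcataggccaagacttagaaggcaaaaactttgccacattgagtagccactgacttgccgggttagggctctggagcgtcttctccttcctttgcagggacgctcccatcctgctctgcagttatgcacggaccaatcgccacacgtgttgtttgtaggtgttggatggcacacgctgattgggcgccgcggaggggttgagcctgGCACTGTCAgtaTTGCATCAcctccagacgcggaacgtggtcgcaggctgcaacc
Fgf21 (chr7:45615441-45615740, minus strand): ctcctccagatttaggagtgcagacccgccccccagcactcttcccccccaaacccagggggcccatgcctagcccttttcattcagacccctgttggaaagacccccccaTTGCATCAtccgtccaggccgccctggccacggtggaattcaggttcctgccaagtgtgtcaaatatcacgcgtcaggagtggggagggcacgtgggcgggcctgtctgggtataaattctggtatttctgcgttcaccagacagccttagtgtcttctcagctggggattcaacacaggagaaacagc
The match of Asns begins 23 bases before the start, that of Fgf21 139 bases and that of Vldlr 200 bases before it, while those of Iars and Trib3 begin 8 and 15 bases into the transcript, each counted from the RefSeq start. Vldlr has a second RefSeq window, which holds neither set of letters. Slc3a2, Stbd1, Atf4 and Ddit3 had no match in this window.

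Of 22 genes of serine synthesis and folate metabolism 5 rose and 0 fell, with a median log2 fold change of 0.27. Psat1, phosphoserine aminotransferase, ran from 2.07 to 16.04 CPM in Ctrl_RT (median 8.91) and from 50.7 to 78.6 CPM in MetR_CE (median 62.3), a log2 fold change of 2.90 ± 0.26 (adjusted p = 5.7e-10). Phgdh, which opens the serine pathway, ran from 0.0623 to 0.708 CPM in Ctrl_RT (median 0.387) and from 1.64 to 6.01 CPM in MetR_CE (median 2.71), a log2 fold change of 3.24 ± 0.42 (adjusted p = 4.08e-07), so that it stayed a low transcript. The last enzyme, Psph, was not called (0.44, adjusted p = 0.0138). Aldh1l2, the mitochondrial 10-formyltetrahydrofolate dehydrogenase, ran from 0.390 to 1.26 CPM in Ctrl_RT (median 0.499) and from 4.52 to 8.78 CPM in MetR_CE (median 6.62), a log2 fold change of 3.39 ± 0.23 (adjusted p = 3.59e-12), and Mthfd1l, the mitochondrial formyltetrahydrofolate synthetase, ran from 0.258 to 1.18 CPM in Ctrl_RT (median 0.749) and from 3.27 to 5.24 CPM in MetR_CE (median 4.07), a log2 fold change of 2.43 ± 0.29 (adjusted p = 9.71e-08). In each of Psat1, Phgdh, Aldh1l2 and Mthfd1l the lowest MetR_CE library was above the highest Ctrl_RT library.

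Of 34 amino acid transporters 11 rose and 2 fell, with a median of 0.47. Slc7a2, a cationic amino acid carrier (log2 fold change 1.02 ± 0.15, adjusted p = 5.43e-06), the mitochondrial aspartate-glutamate carrier Slc25a13 (log2 fold change 0.74 ± 0.10, adjusted p = 8.16e-07), the ornithine carrier Slc25a15 (log2 fold change 0.61 ± 0.08, adjusted p = 1.3e-06) and the glutamine carrier Slc38a2 (log2 fold change 0.79 ± 0.25, adjusted p = 0.0151) did not overlap between the groups. Slc7a11, the cystine importer, was barely detected. It was at 0 CPM in 5 of 7 Ctrl_RT libraries and at most 0.187 CPM in the others, and spanned 0.154 to 1.59 CPM in MetR_CE (median 0.760).

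In methionine metabolism itself 5 of 24 genes rose and 3 fell. Mat1a, the hepatic methionine adenosyltransferase that makes S-adenosylmethionine, ran from 1755 to 4962 CPM in Ctrl_RT (median 2598) and from 7386 to 8894 CPM in MetR_CE (median 7756), a log2 fold change of 1.37 ± 0.16 (adjusted p = 1.09e-07), without overlap. Cth, cystathionine γ-lyase, which releases cysteine, rose (log2 fold change 0.92 ± 0.14, adjusted p = 5.15e-06), and Mtrr, methionine synthase reductase, rose (log2 fold change 0.67 ± 0.09, adjusted p = 4.34e-07). Cbs (0.17, adjusted p = 0.0697) and Bhmt, which remethylates homocysteine with betaine (0.04, adjusted p = 0.891), were not called. Mpst, which makes persulfide from mercaptopyruvate, fell (log2 fold change -0.67 ± 0.07, adjusted p = 2.85e-08). Among 12 S-adenosylmethionine-dependent methyltransferases 0 rose and 2 fell, among them Nnmt, nicotinamide N-methyltransferase (log2 fold change -0.59 ± 0.22, adjusted p = 0.0406), whose call was lost in 13 of 24 alternatives, 9 of them with 1 library left out (Ctrl_RT replicate 1, 2, 5 or 6 or MetR_CE replicate 1, 2, 3, 4 or 5).

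The gene with the smallest p of all was Cyp2a5, a P450 that oxidizes coumarin and nicotine. It ran from 128 to 230.0 CPM in Ctrl_RT (median 159) and from 894 to 1369 CPM in MetR_CE (median 1282), a log2 fold change of 2.78 ± 0.15 (adjusted p = 4.31e-14), without overlap. Its near copy Cyp2a4 was at 0.125 and 1.22 CPM (medians; log2 fold change 4.48 ± 0.66, adjusted p = 3.73e-06, or 3.57 without MetR_CE replicate 1), and the split of reads between both is uncertain. Gstm2, a glutathione transferase, ran from 13.5 to 25.8 CPM in Ctrl_RT (median 16.3) and from 87.9 to 112 CPM in MetR_CE (median 105), a log2 fold change of 2.49 ± 0.15 (adjusted p = 4.74e-13). The more abundant Gstm1 ran from 289 to 547 CPM in Ctrl_RT (median 409) and from 1189.6 to 1652 CPM in MetR_CE (median 1343), a log2 fold change of 1.75 ± 0.14 (adjusted p = 1.75e-10). Ugt1a9, a glucuronosyltransferase that shares its last exons with the other Ugt1a genes, ran from 10.1 to 31.9 CPM in Ctrl_RT (median 15.3) and from 89.1 to 140.0 CPM in MetR_CE (median 95.5), a log2 fold change of 2.63 ± 0.20 (adjusted p = 2.48e-11). The quinone reductase Nqo1 (log2 fold change 1.91 ± 0.22, adjusted p = 5.67e-08) and the monooxygenase Fmo1 (log2 fold change 1.18 ± 0.09, adjusted p = 4.23e-11) rose too, and none of these groups overlapped.

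Over the whole list of 72 glutathione transferases and phase II enzymes, 30 rose and 5 fell, with a median log2 fold change of 0.48. The 56 genes of P450 families 1 to 4 went both ways, with 17 up, 13 down and a median of -0.04, and their summed level was 14112 to 18187 CPM in Ctrl_RT and 15797 to 19728 CPM in MetR_CE (exact two-sided permutation p = 0.0851). Cyp2c37 (log2 fold change 1.40 ± 0.20, adjusted p = 2.9e-06), an epoxygenase of fatty acids, and Cyp4b1 (log2 fold change 1.27 ± 0.09, adjusted p = 2e-11) were among those up. Cyp4a14, an ω-hydroxylase and a classical target of PPARα, ran from 7.49 to 219 CPM in Ctrl_RT (median 55.5) and from 349 to 1609.8 CPM in MetR_CE (median 893), a log2 fold change of 3.73 ± 0.79 (adjusted p = 0.000449), and its log2 fold change was 4.37 without Ctrl_RT replicate 2. Cyp1a2 (-0.05, adjusted p = 0.78) and Cyp3a11 (-0.55, adjusted p = 0.31) were not called.

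App, which encodes the amyloid precursor protein, also rose with one of the smallest p (log2 fold change 1.73 ± 0.11, adjusted p = 6.82e-13). Its levels were 51.2 to 71.7 CPM in Ctrl_RT (median 55.8) and 153 to 241 CPM in MetR_CE (median 198). Fam169b rose likewise (log2 fold change 1.10 ± 0.07, adjusted p = 2.97e-12).

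Lipid synthesis genes rose in part. Of 27 genes of de novo lipogenesis 10 rose and 0 fell, with a median of 0.58. Elovl6, which elongates palmitate, ran from 44.7 to 147 CPM in Ctrl_RT (median 78.8) and from 249.2 to 307 CPM in MetR_CE (median 264), a log2 fold change of 1.74 ± 0.31 (adjusted p = 4.77e-05). Me1, the cytosolic malic enzyme that supplies NADPH, ran from 122 to 408 CPM in Ctrl_RT (median 141) and from 707 to 882 CPM in MetR_CE (median 774), a log2 fold change of 2.10 ± 0.29 (adjusted p = 1.63e-06). The desaturases Fads1 (log2 fold change 1.15 ± 0.17, adjusted p = 5.03e-06) and Fads2 (log2 fold change 1.54 ± 0.20, adjusted p = 4.02e-07), which make polyunsaturated fatty acids, rose without overlap. Acaca, acetyl-CoA carboxylase, rose with overlap, from 49.9 to 126 CPM in Ctrl_RT and from 114 to 176 CPM in MetR_CE. Its log2 fold change was 0.84 to 1.11 over the main fit and its alternatives, and only glmTreat ended its call. Fasn, fatty acid synthase, ran from 301 to 2506 CPM in Ctrl_RT (median 659.7) and from 1236 to 1917 CPM in MetR_CE (median 1604), and was not called (0.87, adjusted p = 0.11). Scd1, the Δ9 desaturase, ran from 583 to 12202 CPM in Ctrl_RT (median 3285) and from 1057 to 7943 CPM in MetR_CE (median 2739), and was not called either (-0.33, adjusted p = 0.636). In both genes the MetR_CE range lay within the Ctrl_RT range, whose highest library was Ctrl_RT replicate 5, and without that library Fasn was called (log2 fold change 1.40, adjusted p = 0.00439) while Scd1 had a log2 fold change of 0.24. Fasn was also called with the 2 groups fitted alone, with the replicate block and by limma voom. Srebf1, the transcription factor gene of lipogenesis, had a log2 fold change of -0.51 (adjusted p = 0.106) and was called without Ctrl_RT replicate 1 (-0.64).

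Cholesterol synthesis and uptake genes leaned upward, with 14 of 30 up, 1 down and a median of 0.75, and 9 were up without MetR_CE replicate 3 or without replicate 5. The sterol dehydrogenase Hsd17b7 ran from 26.7 to 47.6 CPM in Ctrl_RT (median 31.3) and from 74.8 to 205 CPM in MetR_CE (median 125), a log2 fold change of 1.904 ± 0.25 (adjusted p = 4.81e-07). Stard4, a sterol transporter, rose too (log2 fold change 1.05 ± 0.16, adjusted p = 6.29e-06), and neither overlapped. Insig2, which retains SREBP in the endoplasmic reticulum, was the 1 that fell (log2 fold change -0.95 ± 0.17, adjusted p = 5.38e-05). Sqle, squalene epoxidase, was not called (0.75, adjusted p = 0.329).

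On the side of fatty acid oxidation 13 of 49 genes rose and 0 fell, with a median of 0.36. Ppara, the nuclear receptor of the fasting response, ran from 26.2 to 74.7 CPM in Ctrl_RT (median 53.6) and from 133 to 188 CPM in MetR_CE (median 145), a log2 fold change of 1.53 ± 0.17 (adjusted p = 5.79e-08). Cpt1a, the gate of mitochondrial fatty acid import, ran from 239 to 395 CPM in Ctrl_RT (median 353) and from 637 to 872 CPM in MetR_CE (median 739.9), a log2 fold change of 1.16 ± 0.13 (adjusted p = 5.05e-08). Neither overlapped. The acyl-CoA thioesterases Acot3 and Acot4, neighbouring near copies, rose as well, Acot3 with the largest log2 fold change of the list. Acot4 ran from 14.8 to 45.8 CPM in Ctrl_RT (median 18.8) and from 84.7 to 151 CPM in MetR_CE (median 122), a log2 fold change of 2.33 ± 0.20 (adjusted p = 5.4e-10). Acot3 ran from 0 to 1.25 CPM in Ctrl_RT (median 0.0780) and from 8.47 to 40.2 CPM in MetR_CE (median 20.3), a log2 fold change of 6.19 ± 0.63 (adjusted p = 8.55e-09), with 3 of 7 Ctrl_RT libraries at 0, and its log2 fold change was 7.14 without Ctrl_RT replicate 2. Pdk4, a kinase that inhibits pyruvate dehydrogenase, was not called (0.38, adjusted p = 0.314).

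Bile acid genes went both ways, with 10 of 33 up and 6 down. Cyp39a1, the 24-hydroxycholesterol hydroxylase, ran from 21.0 to 52.1 CPM in Ctrl_RT (median 31.8) and from 181 to 266 CPM in MetR_CE (median 204), a log2 fold change of 2.58 ± 0.22 (adjusted p = 3.22e-10). Abcg8, a subunit of the canalicular sterol exporter (log2 fold change 1.01 ± 0.11, adjusted p = 3.47e-08), Abcc4, a basolateral exporter (log2 fold change 1.88 ± 0.19, adjusted p = 7.74e-09), and Slc10a1, the bile acid importer NTCP (log2 fold change 0.85 ± 0.10, adjusted p = 1.45e-07), rose, while Slc27a5, which makes bile acid CoA esters, fell (log2 fold change -0.66 ± 0.07, adjusted p = 5.01e-09). Cyp7a1, the rate-limiting enzyme of bile acid synthesis, ran from 2.07 to 76.97 CPM in Ctrl_RT (median 19.9) and from 21.0 to 202 CPM in MetR_CE (median 65.4), and was not called (1.38, adjusted p = 0.0578). It was called when Ctrl_RT replicate 5 (log2 fold change 1.84) or MetR_CE replicate 1 was left out, with the 2 groups fitted alone, with edgeR's filterByExpr and by limma voom. Cyp8b1 was not called (0.30, adjusted p = 0.593).

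**Figure D3:**
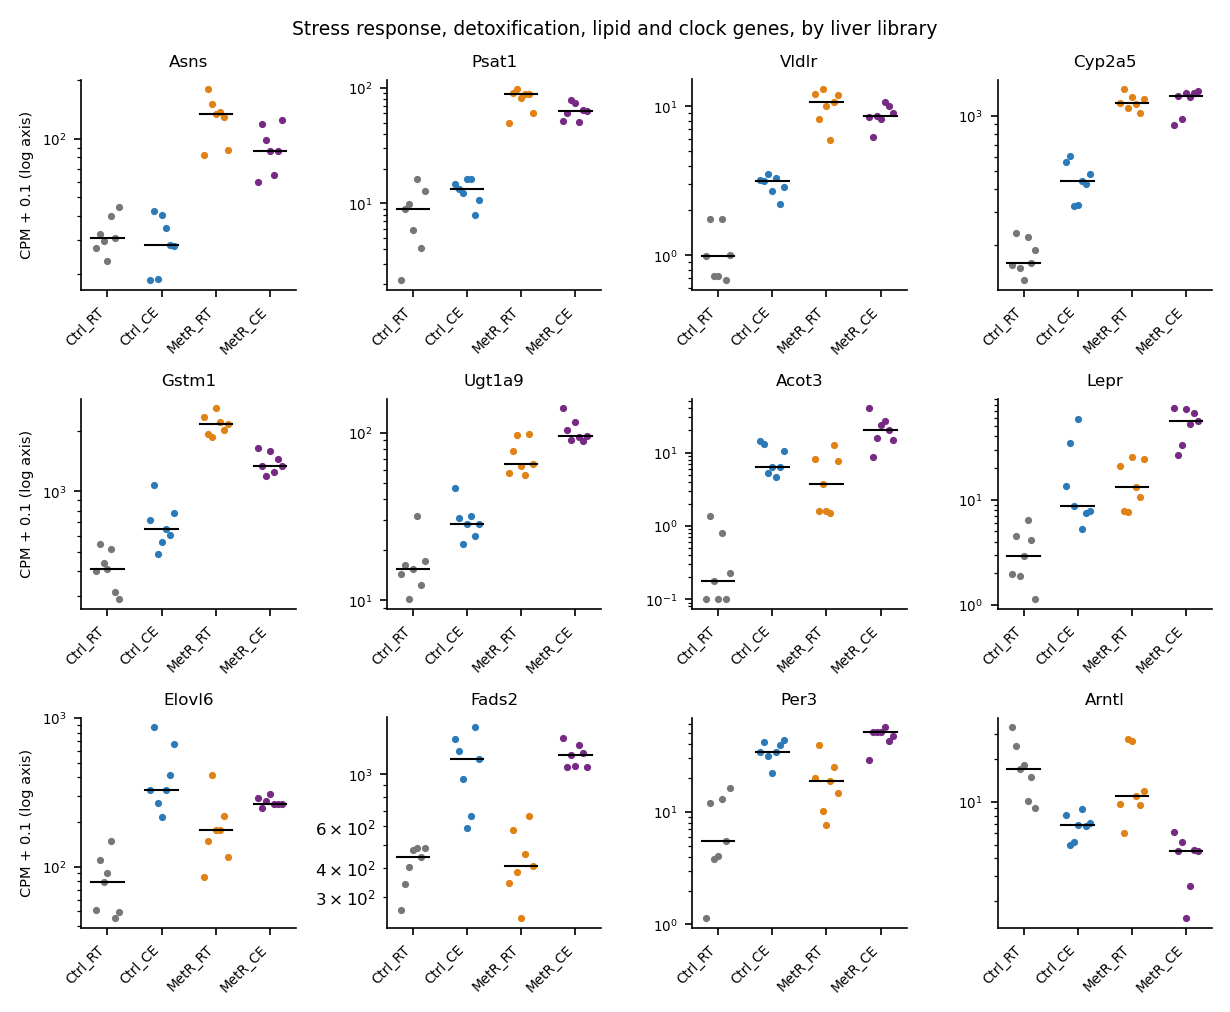
Levels of 12 genes in all 4 liver groups as CPM + 0.1 on a log axis, with 1 point per library and a line at each group's median. Asns, Psat1, Vldlr, Cyp2a5, Gstm1 and Ugt1a9 are above every Ctrl_RT library in all 7 MetR_CE libraries, as are Acot3, Lepr, Elovl6, Fads2 and Per3, and Arntl is below.

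In carbohydrate metabolism 15 of 42 genes rose and 2 fell, with a median of 0.33. Fbp1, fructose bisphosphatase, ran from 981 to 1317 CPM in Ctrl_RT (median 1006) and from 2013 to 2423 CPM in MetR_CE (median 2305), a log2 fold change of 1.05 ± 0.08 (adjusted p = 9.63e-11). Gys2, liver glycogen synthase, ran from 108 to 157 CPM in Ctrl_RT (median 129.5) and from 217 to 362 CPM in MetR_CE (median 267), a log2 fold change of 1.19 ± 0.12 (adjusted p = 4.08e-09). Pck2, the mitochondrial PEP carboxykinase, ran from 3.51 to 5.19 CPM in Ctrl_RT (median 4.17) and from 11.98 to 35.4 CPM in MetR_CE (median 23.1), a log2 fold change of 2.53 ± 0.25 (adjusted p = 5.33e-09). Each of the 3 was higher without overlap. The cytosolic Pck1 was past the threshold (log2 fold change 0.73 ± 0.26, adjusted p = 0.0318), with overlap, and 9 of 24 alternatives ended its call, 6 of them without Ctrl_RT replicate 1, 5 or 6 or MetR_CE replicate 2, 5 or 6, whereas G6pc was not called (0.08, adjusted p = 0.851). Of 27 genes of the TCA cycle and of pyruvate 6 rose and 0 fell, among them Pdha1, a subunit of pyruvate dehydrogenase (log2 fold change 0.90 ± 0.07, adjusted p = 8.71e-11). Ppp1r3g, which targets a phosphatase to glycogen, was one of the genes with the largest change (log2 fold change 4.92 ± 0.93, adjusted p = 0.000117), at 0.187 against 7.94 CPM (medians) and with overlap, and its log2 fold change was 5.52 without Ctrl_RT replicate 3.

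Amino acid catabolism and the urea cycle had 9 of 43 genes up and 1 down. Etnppl, a phospholyase of phosphoethanolamine (log2 fold change 2.31 ± 0.23, adjusted p = 3.4e-09), Got1, cytosolic aspartate aminotransferase (log2 fold change 1.42 ± 0.16, adjusted p = 3.39e-08), Oat, ornithine aminotransferase (log2 fold change 1.23 ± 0.11, adjusted p = 8.48e-10), and Cps1, which opens the urea cycle (log2 fold change 0.88 ± 0.10, adjusted p = 7.11e-08), rose without overlap. Tat (0.28, adjusted p = 0.473) and Sds (0.15, adjusted p = 0.535), enzymes of tyrosine and serine breakdown, were not called.

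Clock genes differed between the groups. Of 22 clock genes 9 rose and 3 fell. Per3 ran from 1.03 to 16.3 CPM in Ctrl_RT (median 5.47) and from 28.6 to 56.8 CPM in MetR_CE (median 50.9), a log2 fold change of 2.58 ± 0.35 (adjusted p = 1.1e-06), and the clock output gene Usp2 ran from 1.87 to 8.33 CPM in Ctrl_RT (median 3.91) and from 28.6 to 62.9 CPM in MetR_CE (median 32.4), a log2 fold change of 3.10 ± 0.42 (adjusted p = 1.04e-06). Arntl, which encodes the activator BMAL1, ran from 8.97 to 33.4 CPM in Ctrl_RT (median 16.9) and from 1.42 to 6.02 CPM in MetR_CE (median 4.44), a log2 fold change of -2.16 ± 0.33 (adjusted p = 5.28e-06). Per1 (log2 fold change 1.93 ± 0.36, adjusted p = 8.88e-05), Dbp (log2 fold change 1.95 ± 0.47, adjusted p = 0.00173) and Nr1d2 (log2 fold change 1.06 ± 0.15, adjusted p = 1.5e-06) rose without overlap, while Nr1d1 was not called (0.14, adjusted p = 0.663). Dbp ranged from 0.551 to 93.5 CPM within Ctrl_RT, with the lowest value in the library that held the highest Arntl (replicate 1). The study's methods place all sacrifices in the same morning window, and the hour of each mouse is not given in the sources used here, so its part in these values was not tested.

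Leptin receptor was among the largest increases. Lepr ran from 1.03 to 6.37 CPM in Ctrl_RT (median 2.80) and from 26.6 to 74.4 CPM in MetR_CE (median 56.6), a log2 fold change of 4.13 ± 0.50 (adjusted p = 1.39e-07), without overlap. Klb, the co-receptor of FGF21, rose (log2 fold change 1.14 ± 0.14, adjusted p = 1.14e-07), Fgfr1 fell (log2 fold change -0.93 ± 0.14, adjusted p = 3.18e-06), and Enho, which encodes the secreted peptide adropin, fell (log2 fold change -2.83 ± 0.35, adjusted p = 1.93e-07). In the list of 35 genes of growth hormone, IGF1 and leptin signalling 6 rose and 7 fell.

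Immediate early genes went both ways. Of 23 such genes 6 fell and 3 rose (1 without MetR_CE replicate 4), with a median of -0.66. Egr1 ran from 1.87 to 63.2 CPM in Ctrl_RT (median 10.02) and from 1.54 to 8.03 CPM in MetR_CE (median 2.45), a log2 fold change of -2.52 ± 0.74 (adjusted p = 0.00873), Dusp1 ran from 22.6 to 65.9 CPM in Ctrl_RT (median 37.3) and from 9.32 to 19.3 CPM in MetR_CE (median 13.5), a log2 fold change of -1.48 ± 0.31 (adjusted p = 0.000418) and Fos ran from 0.499 to 5.07 CPM in Ctrl_RT (median 1.42) and from 0.159 to 0.744 CPM in MetR_CE (median 0.462), a log2 fold change of -1.99 ± 0.70 (adjusted p = 0.0282). Dusp1 did not overlap, and Egr1 and Fos did. The call of Fos was lost without Ctrl_RT replicate 3 or MetR_CE replicate 4, 5 or 7. The 3 that rose were Myc, Klf4 and Sgk1. Without Ctrl_RT replicate 1 the log2 fold change of Egr1 was -1.79 (adjusted p = 0.0600).

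Chaperones of the endoplasmic reticulum and genes of the unfolded protein response had 7 of 26 down and 1 up. Xbp1, its transcription factor gene, fell (log2 fold change -1.07 ± 0.15, adjusted p = 1.13e-06), as did Derl3, a component of ER-associated degradation (log2 fold change -2.94 ± 0.56, adjusted p = 0.000121, or -2.19 without Ctrl_RT replicate 7), while Hspa5, the chaperone BiP, was not called (-0.35, adjusted p = 0.101). Among 23 heat shock and cold-inducible genes 0 rose and 1 fell, the small heat shock gene Hspb1 (log2 fold change -1.45 ± 0.26, adjusted p = 4.69e-05). The cold-inducible Rbm3 (0.32, adjusted p = 0.0294) and Cirbp (-0.28, adjusted p = 0.164) were not called.

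Interferon-stimulated and antigen presentation genes leaned downward, with 22 of 45 down, 0 up and a median of -0.56. Psmb8, a subunit of the immunoproteasome, ran from 29.8 to 40.6 CPM in Ctrl_RT (median 33.9) and from 15.0 to 17.7 CPM in MetR_CE (median 15.7), a log2 fold change of -1.11 ± 0.08 (adjusted p = 4.21e-11). Tap1, the peptide transporter (log2 fold change -0.97 ± 0.10, adjusted p = 4.04e-09), and H2-K1, a class I heavy chain (log2 fold change -0.74 ± 0.07, adjusted p = 1.21e-09), fell without overlap. Of 36 proliferation genes 9 fell and 2 rose, among the former Cdkn1a, the cell cycle inhibitor p21 (log2 fold change -3.58 ± 0.65, adjusted p = 6.46e-05), and Mki67 (log2 fold change -1.91 ± 0.50, adjusted p = 0.00386), which was at most 1.25 CPM in all 14 libraries. Of the 21 members at 1 CPM or more in the higher group 4 fell and 2 rose. Their median log2 fold change was 0.004, beside -0.419 over all 36. Without Ctrl_RT replicate 1 the log2 fold change of Cdkn1a was -2.64.

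Ribosomal and respiratory chain genes had few members called, beside 6.25% up and 7.22% down over all genes tested. Of 79 cytosolic ribosomal protein genes 1 fell and 0 rose, and of 75 nuclear respiratory chain subunits 2 rose and 0 fell. Of 15 mitochondrially encoded transcripts 1 rose and 0 fell, near the share over all genes, and 0 of the 12 at 1 CPM or more were called. Summed mitochondrial transcripts were 37299 to 45718 CPM in Ctrl_RT and 40675 to 44309 CPM in MetR_CE (exact two-sided permutation p = 0.987). Iron genes went both ways, with 7 of 24 up and 6 down: ferritin heavy chain Fth1 rose (log2 fold change 0.83 ± 0.07, adjusted p = 3.41e-10), Bmp6, which induces hepcidin, rose (log2 fold change 1.56 ± 0.17, adjusted p = 2.57e-08), Tfr2 fell (log2 fold change -0.72 ± 0.08, adjusted p = 4.1e-08) and the hepcidin gene Hamp was not called (0.38, adjusted p = 0.306). The second hepcidin gene, Hamp2, rose, with a log2 fold change from 1.38 to 1.84 over the main fit and its alternatives. Apolipoprotein and lipoprotein genes had 6 of 32 up and 4 down, with Apoa1, the main HDL protein, at 9129 against 3668 CPM (medians; log2 fold change -1.27 ± 0.12, adjusted p = 2.79e-09) and Apob not called (-0.04, adjusted p = 0.722).

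Zonation markers gave no common direction. Of 21 pericentral markers 3 rose (5 without Ctrl_RT replicate 6) and 2 fell, and of 19 periportal markers 5 rose and 3 fell. Glul, which marks the hepatocytes around the central vein, had a log2 fold change of 0.25 (adjusted p = 0.00315), under the threshold, and Axin2, a Wnt target, was not called (-0.33, adjusted p = 0.15).

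**Figure D4:**
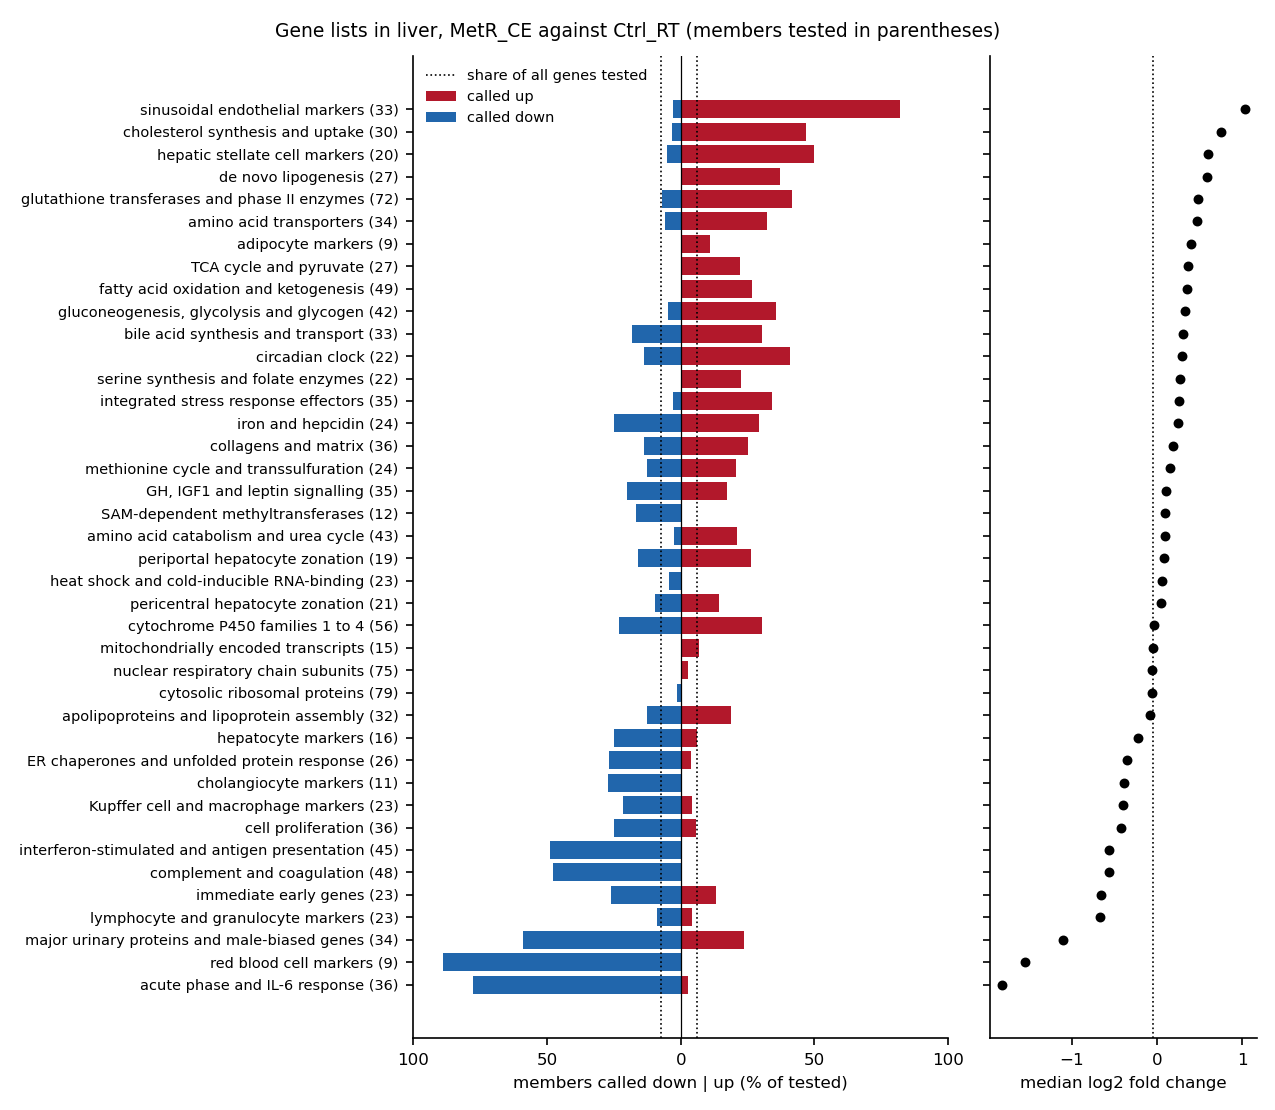
Share of each gene list called down (left, blue) or up (right, red) in MetR_CE against Ctrl_RT, with the number of members tested in parentheses, beside the median log2 fold change of all members tested; lists with under 9 members tested are left out. Dotted lines mark the shares of all genes tested (6.25% up, 7.22% down) and their median (-0.04), and lists are in order of their median, from sinusoidal endothelial markers (1.03) to acute phase genes (-1.82).

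Markers of sinusoidal endothelial cells, the fenestrated lining of the liver's capillaries, rose nearly as a whole. Of 33 markers 27 rose and 1 fell, with a median log2 fold change of 1.03. Their summed level was 714 to 898 CPM in Ctrl_RT and 1378 to 1507 CPM in MetR_CE, without overlap (1.77 times higher, exact two-sided permutation p = 0.000583, adjusted 0.00142). Oit3 ran from 11.8 to 17.1 CPM in Ctrl_RT (median 13.3) and from 33.05 to 36.9 CPM in MetR_CE (median 35.9), a log2 fold change of 1.36 ± 0.08 (adjusted p = 4.74e-13). F8, which encodes clotting factor VIII, made by these cells in the liver, ran from 6.82 to 8.99 CPM in Ctrl_RT (median 7.15) and from 19.5 to 23.8 CPM in MetR_CE (median 20.6), a log2 fold change of 1.49 ± 0.10 (adjusted p = 1.97e-12). Kdr, the VEGF receptor (log2 fold change 1.40 ± 0.09, adjusted p = 3.59e-12), Ptprb, a vascular phosphatase (log2 fold change 1.39 ± 0.09, adjusted p = 1.76e-12), Dnase1l3, a secreted nuclease (log2 fold change 1.29 ± 0.08, adjusted p = 1.87e-12), Ehd3 (log2 fold change 1.49 ± 0.10, adjusted p = 3.75e-12) and the scavenger receptor Stab2 (log2 fold change 0.93 ± 0.10, adjusted p = 4.32e-08) rose, each without overlap.

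Stellate cells store vitamin A and make matrix. Of 20 stellate markers 10 rose and 1 fell, with a median of 0.60, and their sum was 212 to 479 CPM in Ctrl_RT and 428 to 576 CPM in MetR_CE (exact two-sided permutation p = 0.00233, adjusted 0.00495), with overlap. Reln (log2 fold change 0.97 ± 0.17, adjusted p = 5.51e-05) and Lrat, the retinol acyltransferase (log2 fold change 1.14 ± 0.26, adjusted p = 0.00112), rose. Collagens and matrix genes split: 9 of 36 rose, among them the basement membrane gene Hspg2 (log2 fold change 1.30 ± 0.10, adjusted p = 8.05e-11) and the inhibitor Timp3 (log2 fold change 1.82 ± 0.16, adjusted p = 7.11e-10), and 5 fell, among them Col1a1 (log2 fold change -1.47 ± 0.33, adjusted p = 0.000849).

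Kupffer cells are the macrophages of the liver. Of 23 Kupffer cell and macrophage markers 5 fell and 1 rose, with sums of 626 to 774 CPM in Ctrl_RT and 618 to 759 CPM in MetR_CE (exact two-sided permutation p = 0.455). Clec4f (-0.29, adjusted p = 0.0972), Vsig4 (-0.22, adjusted p = 0.412) and Adgre1 (-0.06, adjusted p = 0.925) were not called, and the number down was 2 without Ctrl_RT replicate 1, 2 or 4 or MetR_CE replicate 1, 4 or 5, and 3 without Ctrl_RT replicate 6 or MetR_CE replicate 7. The iron exporter Slc40a1, which is on the list but not specific to these cells, was the 1 that rose (log2 fold change 0.88 ± 0.13, adjusted p = 3.54e-06).

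Red blood cell markers fell, with 8 of 9 down, 0 up and a median of -1.55. Their sum was 148 to 219.7 CPM in Ctrl_RT and 45.4 to 99.9 CPM in MetR_CE, without overlap (exact two-sided permutation p = 0.000583, adjusted 0.00142). Hbb-bs, a β globin, ran from 41.5 to 102 CPM in Ctrl_RT (median 67.5) and from 21.9 to 33.7 CPM in MetR_CE (median 28.1), a log2 fold change of -1.36 ± 0.20 (adjusted p = 3.05e-06). Slc4a1, the anion exchanger of red blood cells, had 0 counts in all 7 MetR_CE libraries and a mean of 0.570 CPM in Ctrl_RT, at least 19.1-fold lower when 3 counts over the 7 libraries are taken as the floor.

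Of 11 cholangiocyte markers 3 fell and 0 rose, and the sum was 70.8 to 349 CPM in Ctrl_RT and 42.8 to 50.2 CPM in MetR_CE, without overlap (exact two-sided permutation p = 0.000583, adjusted 0.00142). The highest Ctrl_RT value is replicate 7, and the other 6 ended at 106 CPM. Most of that excess was Spp1, osteopontin, which ran from 31.8 to 308 CPM in Ctrl_RT (median 44.5) and from 16.9 to 21.5 CPM in MetR_CE (median 18.7), a log2 fold change of -2.10 ± 0.34 (adjusted p = 1.76e-05), and its log2 fold change was -1.19 without that library. Sox9, a transcription factor of bile ducts, fell without overlap (log2 fold change -1.99 ± 0.19, adjusted p = 3.19e-09), while the duct keratins Krt7 (adjusted p = 0.994) and Krt19 (-0.71, adjusted p = 0.132) were not called. Lymphocyte and granulocyte markers had 1 of 23 up and 2 down, and their sum was 11.4 to 99.0 CPM in Ctrl_RT, where replicate 1 was highest, and 10.6 to 17.4 CPM in MetR_CE, with overlap (exact two-sided permutation p = 0.0111, adjusted 0.0188). The number that fell was 2 without that library and 4 without Ctrl_RT replicate 5 or replicate 6.

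Hepatocyte markers were 4 of 16 down and 1 up, with sums of 105581 to 137657 CPM in Ctrl_RT and 87281 to 93898 CPM in MetR_CE, without overlap (exact two-sided permutation p = 0.000583, adjusted 0.00142). Alb had a log2 fold change of -0.35 (adjusted p = 0.0315), under the threshold, whereas Ambp, the precursor of α1-microglobulin, fell (log2 fold change -1.43 ± 0.14, adjusted p = 2.97e-09). Hnf4a, the hepatocyte transcription factor gene, was not called (-0.05, adjusted p = 0.668).

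**Figure D5:**
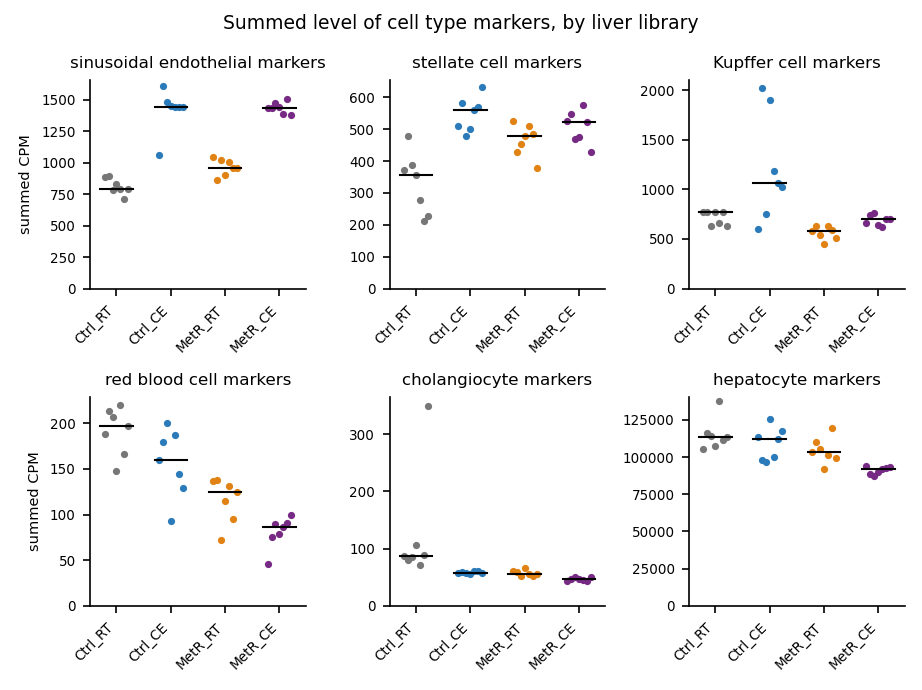
Summed CPM of 6 cell type marker lists in all 4 liver groups, with 1 point per library, a line at each group's median and axes that start at 0. Endothelial sums of MetR_CE (1378 to 1507 CPM) lie above those of Ctrl_RT (714 to 898 CPM), red blood cell and hepatocyte sums lie below, Kupffer cell sums overlap, and 1 Ctrl_RT library stands apart in cholangiocyte markers.

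To place the combination beside each stimulus alone, the same fit gave Ctrl_CE against Ctrl_RT (1612 genes up, 7.28%, and 1027 down, 4.64%) and MetR_RT against Ctrl_RT (638 up, 2.88%, and 891 down, 4.02%). These contrasts share the Ctrl_RT libraries with MetR_CE against Ctrl_RT, so their values are given side by side only. Acute phase genes were 28 of 36 down in MetR_RT and 11 of 36 down in Ctrl_CE, beside 28 of 36 in MetR_CE. Integrated stress response effectors were 15 of 35 up in MetR_RT, 1 of 35 in Ctrl_CE and 12 of 35 in MetR_CE. Sinusoidal endothelial markers were 28 of 33 up in Ctrl_CE, 9 of 33 in MetR_RT and 27 of 33 in MetR_CE. Genes of de novo lipogenesis were 19 of 27 up in Ctrl_CE, 5 in MetR_RT and 10 in MetR_CE, and those of cholesterol synthesis and uptake 21 of 30, 1 and 14. Kupffer cell markers were 15 of 23 up in Ctrl_CE, 8 of 23 down in MetR_RT and 5 down in MetR_CE. ER chaperones were 14 of 26 down in Ctrl_CE and 7 in each of the other 2.

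MetR_CE was also tested directly against each single stimulus. Against Ctrl_CE, 258 genes were higher (1.17%) and 907 lower (4.1%), and against MetR_RT 608 were higher (2.75%) and 540 lower (2.44%). Compared with Ctrl_CE, MetR_CE had 22 of 36 acute phase genes lower, 21 of 23 Kupffer cell markers lower, 8 of 27 lipogenesis genes lower and 9 of 35 stress response effectors higher. The acute phase count was 14 without Ctrl_CE replicate 4, and the lipogenesis count was 5 without any 1 of Ctrl_CE replicates 2, 6 and 7 or MetR_CE replicates 5, 6 and 7. The summed Kupffer cell markers ran from 601 to 2022 CPM in Ctrl_CE, highest in replicates 2 (2022 CPM) and 4 (1901 CPM), and from 618 to 759 CPM in MetR_CE. Ctrl_CE replicate 1 (601 CPM) lay below the MetR_CE range, and the count of lower Kupffer markers was 21 without that library, 19 without Ctrl_CE replicate 2 and 18 without Ctrl_CE replicate 4. Saa1 differed between these groups (log2 difference -8.49 ± 1.17, adjusted p = 1.48e-05), although Ctrl_CE replicate 1 had 10.2 CPM and thus lay within the MetR_CE range. Adgre1, the macrophage marker F4/80, had 12.5 to 110.2 CPM in Ctrl_CE (median 29.1) and 11.3 to 18.0 CPM in MetR_CE (median 15.1), a log2 difference of -1.71 ± 0.31 (adjusted p = 0.000304). Scd1 was lower than in Ctrl_CE (log2 difference -1.97 ± 0.46, adjusted p = 0.00424). Asns (log2 difference 1.61 ± 0.20, adjusted p = 2.77e-06) and Cyp2a5 (log2 difference 1.41 ± 0.14, adjusted p = 8.79e-08) were higher.

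Compared with MetR_RT, MetR_CE had 18 of 33 endothelial markers higher, 11 of 49 genes of fatty acid oxidation higher and 7 of 30 cholesterol genes higher. The fatty acid oxidation count was 17 without MetR_RT replicate 7, and the cholesterol count was 3 without MetR_CE replicate 5 and 4 without any 1 of MetR_CE replicate 3 and MetR_RT replicates 1, 4 and 7. Ppara (log2 difference 1.52 ± 0.17, adjusted p = 4.19e-07), Cpt1a (log2 difference 1.36 ± 0.13, adjusted p = 5.46e-08), Fads2 (log2 difference 1.45 ± 0.20, adjusted p = 5.46e-06) and Pck1 (log2 difference 1.29 ± 0.26, adjusted p = 0.000646) were higher, and Arntl (log2 difference -1.85 ± 0.33, adjusted p = 0.000133) was lower. Bhmt was higher too (log2 difference 1.16 ± 0.18, adjusted p = 2.65e-05), its MetR_RT level being the lowest of the 4 groups. Cyp2a5 had a log2 difference of 0.01 (adjusted p = 0.984) from MetR_RT.

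Over all genes tested, 161 differed from both single stimuli (0.727%), of which 34 were higher than both in MetR_CE (0.154%) and 83 lower than both (0.375%). Of 265 named genes, which were chosen largely by their difference between MetR_CE and Ctrl_RT, 27 differed from both. MetR_CE was higher than each in 5 of them: Lepr, Acot3, Acot4, Gys2 and Bmp6. Lepr and Gys2 kept both calls with any 1 library left out, whereas the difference from Ctrl_CE was lost in Acot3 without any 1 of Ctrl_CE replicates 3, 5 and 6 or MetR_CE replicates 1, 4 and 5, in Acot4 without any 1 of Ctrl_CE replicates 3 to 6 or MetR_CE replicates 1, 4, 5 and 6, and in Bmp6 without any 1 of Ctrl_CE replicates 1 to 4 or MetR_CE replicates 2, 3, 4 and 6. Bmp6 also lost its difference from MetR_RT without MetR_CE replicate 2 or MetR_RT replicate 2. Lepr had medians of 2.80 CPM in Ctrl_RT, 8.68 CPM in Ctrl_CE, 13.2 CPM in MetR_RT and 56.6 CPM in MetR_CE (log2 difference 1.53 ± 0.42, adjusted p = 0.0126, from Ctrl_CE, and log2 difference 1.81 ± 0.42, adjusted p = 0.00229, from MetR_RT). Gys2 had medians of 129.5 CPM, 183 CPM, 170.1 CPM and 267 CPM in the same order (log2 difference 0.71 ± 0.12, adjusted p = 0.000113, and log2 difference 0.73 ± 0.12, adjusted p = 3.81e-05). MetR_CE was lower than each in 18, among them C9, C8a, Fga, Saa1, Saa2, Enho, Dusp1, Jun, Sox9, the globins Hba-a1, Hbb-bs and Hbb-bt, and lipoprotein lipase (Lpl). The difference of Saa1 from MetR_RT was -3.27 on the log2 scale and -1.09, no longer called, without MetR_RT replicate 5, and that of Saa2 was -0.99 and not called without the same library. Saa2 also lost this call without any 1 of MetR_CE replicates 1, 2, 3, 5, 6 and 7, and Fga without any 1 MetR_CE library or any 1 of MetR_RT replicates 1, 2, 4, 5 and 7. The calls of Fga, Enho and Jun against Ctrl_CE were lost without Ctrl_CE replicate 4. Against MetR_RT, Lpl lost its call without any 1 of MetR_CE replicates 2, 5 and 7 or MetR_RT replicates 1 and 5, Hba-a1 without MetR_RT replicate 2 and Hbb-bt without MetR_RT replicate 5. C9, C8a, Dusp1, Sox9 and Hbb-bs kept both calls with any 1 library left out. C9 had medians of 918 CPM, 454 CPM, 211 CPM and 128 CPM in that order of groups (log2 difference -1.75 ± 0.16, adjusted p = 3.84e-08, and log2 difference -0.71 ± 0.16, adjusted p = 0.00163). In 3 genes, Gstm1, Phgdh and Psph, MetR_CE was above Ctrl_CE and below MetR_RT, although Psph lost its call against Ctrl_CE without any 1 of Ctrl_CE replicates 1, 3, 5, 6 and 7 or MetR_CE replicates 2, 3, 4 and 6, and Gstm1 its call against MetR_RT without MetR_RT replicate 4.

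The interaction of diet and temperature, which asks whether the combined change on the log2 scale departs from the sum of the single changes, was positive for 83 genes (0.375%) and negative for 151 (0.682%). With 1 library left out these counts ran from 39, without Ctrl_CE replicate 7, to 151, without Ctrl_CE replicate 4, and from 88 to 250 in the same libraries. Of the 265 named genes 21 had a called interaction, 16 of them negative, and the count was 11 without Ctrl_CE replicate 7 and 34 without Ctrl_CE replicate 4. In Cyp2a5 the single changes were 1.37 with cold and 2.77 with diet, and the combined change was 2.78, for an interaction of -1.36 (adjusted p = 0.000785). Vldlr (-1.79, adjusted p = 0.00174), Gstm1 (-1.36, adjusted p = 0.000997), Elovl6 (-1.91, adjusted p = 0.0171) and Me1 (-1.91, adjusted p = 0.0116) were likewise below the sum, and these 5 genes kept the call with any 1 library left out. Of the 72 glutathione transferase and phase II genes 15 had a negative interaction and 0 a positive one. ER chaperones were the reverse, with 10 of 26 positive and 0 negative (8 to 13 positive with 1 library left out).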

How the data were processed

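Liver RNA was poly(A)-selected, sequenced as read pairs and, per the study's methods and the submitters' processing notes, handled with STAR 2.7.9a on mm10 (GENCODE annotation), featureCounts 2.0.3 and Salmon 1.9.0. The values used are the gene counts the authors deposited for liver, whole numbers with no normalization, 1 column per mouse. The table's name points to Salmon, but whether featureCounts or Salmon gave the counts, and whether strand was used, is not given in the sources used here. All columns of the liver table were matched to samples by the library number in each sample's description, which left 0 unmapped. Gene symbols came from a RefSeq table for 51948 of 56884 rows.

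Genes with at least 10 counts over the 28 libraries were fitted with edgeR 4.0.16 in R 4.3.3 (TMM normalization, quasi-likelihood test, diet, temperature and their interaction, all 4 groups sharing 1 estimate of the spread), with Benjamini-Hochberg adjustment over all genes tested. Calls needed an adjusted p below 0.05 together with a 1.5-fold change or more. Fold changes come from the fit with edgeR's default prior count, on which those of barely detected genes depend. A prior count of 2 entered only the log2 CPM behind the check of same-numbered libraries. The script was tested on simulated data. Summed levels were compared by exact two-sided permutation over mice, with 17 tests adjusted together.

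Named genes were the 12 in each direction with the smallest p and the 6 with the largest fold change, both at 5 CPM or more in the higher group, genes set for each list, up to 4 called members of each list, and among these the genes that differed from both single stimuli or had a called interaction. The genes compared, the lists and the tests were chosen with earlier results of these data known. Alternatives were RLE scaling, 2 other filters, the 2 groups alone, glmTreat, robust dispersion, limma 3.58.1 (voom), DESeq2 1.42.0 (unshrunk, or shrunk by apeglm 1.24.0), a replicate block and each library left out. Replicates are separate mice. Same-numbered libraries did not deviate together (correlations from -0.146 to 0.118, with 1 of 7 over 0.1), so the numbers were not taken as pairs. Totals limit precision for genes of few counts. Results of some genes that entered the counts are not reported here.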

Additional observations from a re-analysis of the deposited data

Results flagged for a closer look

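A library far from the others of its group was found in 11 of 99 groups of 7 libraries examined (11.1%) by the gap to the nearest library as a share of the group's range on the log2 scale (Dixon's test at its 95% critical value, with 0.1 CPM added to single genes before the logarithm). Without the logarithm, a scale chosen after seeing the data, 12 of 99 groups were past it, and 5 of the 11 were past it on both scales, namely C8a, the 10 highest genes and the hepatocyte, cholangiocyte and lymphocyte sums. Chance flags about 1 in 20 such groups. MetR_CE replicate 1 was lowest for 4 complement genes: C6 (gap 0.6351 of the range, 24.0 CPM against at least 51.4 CPM in the others), C8a (0.6457, 136.6 against at least 209 CPM), C8b (0.6267, 93.8 against at least 159 CPM) and C9 (0.5909, 76.2 against at least 125 CPM). The same library was lowest in the summed level of MUP and male-biased genes (0.5851) and of red blood cell markers (0.6488). MetR_CE replicate 7 was lowest for Serpina11 (0.5841). Ctrl_RT replicate 5 was highest in summed hepatocyte markers (0.6407) and in the 10 highest genes (0.6149), Ctrl_RT replicate 7 in cholangiocyte markers (0.7463) and Ctrl_RT replicate 1 in lymphocyte and granulocyte markers (0.6618). The part of these libraries in the differences between groups was not tested beyond leaving each out.

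The effect of cold differed between diets, by the interaction term of edgeR's quasi-likelihood test with Benjamini-Hochberg adjustment, in 21 of the 265 named genes. The count was 11 to 34 with 1 library left out, and of the 21 calls 11 were lost with some library left out. The calls of Derl3, Isg15 and Abcc4 were lost with most single libraries, and those of Slc40a1, Nkd1, Pparg and Nqo1 with many. Serpina3k, Dlat and Dnase1l3 lost theirs with few. Among those reported here the interaction was positive on the log2 scale in Bhmt (1.23 ± 0.25, adjusted p = 0.00937), Derl3 (3.20 ± 0.85, adjusted p = 0.0458), Isg15 (1.14 ± 0.30, adjusted p = 0.0452) and Serpina3k (0.72 ± 0.17, adjusted p = 0.0296). It was negative in Abcc4 (-0.98 ± 0.26, adjusted p = 0.0437), App (-0.68 ± 0.15, adjusted p = 0.0126), Cyp2a5 (-1.36 ± 0.19, adjusted p = 0.000785), Dlat (-0.62 ± 0.12, adjusted p = 0.00908), Dnase1l3 (-0.63 ± 0.12, adjusted p = 0.00638), Elovl6 (-1.91 ± 0.42, adjusted p = 0.0171), Gstm1 (-1.36 ± 0.20, adjusted p = 0.000997), Gstm2 (-1.01 ± 0.20, adjusted p = 0.00833), Hamp2 (-1.94 ± 0.40, adjusted p = 0.0113), Me1 (-1.91 ± 0.40, adjusted p = 0.0116), Nkd1 (-0.76 ± 0.19, adjusted p = 0.0347), Nqo1 (-1.18 ± 0.29, adjusted p = 0.0355), Pparg (-0.65 ± 0.16, adjusted p = 0.0369), Slc3a2 (-0.78 ± 0.18, adjusted p = 0.0195), Slc40a1 (-0.73 ± 0.18, adjusted p = 0.0366) and Vldlr (-1.79 ± 0.28, adjusted p = 0.00174). In Cyp2a5, cold changed the level by 1.37 on the control diet and by 0.01 on the restricted diet, and in Bhmt by -0.07 and 1.16.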

How the results depend on the processing

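No called result reversed its direction under the alternatives run, which for the interaction, and for named genes and lists against Ctrl_CE and MetR_RT, were added after seeing the data. Upregulated and downregulated genes of MetR_CE against Ctrl_RT numbered 1293 to 1476 and 1462 to 1586 with 1 library left out. Testing against the fold threshold itself (glmTreat) left 456 up and 499 down, 36 and 121 against Ctrl_CE, and 42 and 26 against MetR_RT, because that test asks for a fold change beyond 1.5-fold rather than any change. DESeq2 with apeglm shrinkage left 324 genes lower than in MetR_RT, against 496 without shrinkage. Both runs used the same adjusted p, so these counts differ only through the shrunken fold changes. With the replicate block the calls were 1347 up and 1520 down, and of 265 named genes 3 lost and 2 gained a call; the numbers share no known batch, and 1 of 7 numbers correlated best with its own. The summed P450 difference was 995.9 to 1882 CPM with 1 library left out and passed its test without Ctrl_RT replicate 2 (1882 CPM, exact permutation p = 0.00233). The summed pancreatic and gut difference was -17.26 to -8.838 CPM and passed without Ctrl_RT replicate 5 (-17.26 CPM, exact permutation p = 0.0187). The mitochondrial difference, which was not called, was -869.8 to 533.4 CPM. Of the named genes 43 changed their call or moved with some library left out, and 56 lost their call under glmTreat. The 21 called interactions of named genes became 0 under glmTreat (34 at an unadjusted p below 0.05), 34 with unshrunk DESeq2 and 11 to 34 with 1 library left out, and the replicate block lost 6 and gained 1; over all genes glmTreat called 0 in each direction, and unshrunk DESeq2 145 and 266. Of 92 named genes called against Ctrl_CE 21 lost the call with some library left out and 56 under glmTreat, and of 70 against MetR_RT 17 and 58. Of 84 list counts, 49 moved by over 1.5 times under glmTreat (interferon genes down from 22 to 5, stress response up from 12 to 5, cholesterol up from 14 to 5), 9 with apeglm, 7 with filterByExpr (red blood cell markers down from 8 to 5), 4 with unshrunk DESeq2, 4 with voom (cholesterol up from 14 to 9, Kupffer cell down from 5 to 3), 3 with the 2 groups alone (lymphocyte down from 2 to 7), 2 with robust dispersion, 1 with RLE scaling, and 18 with some library left out, all of these 18 being counts of 0 to 3 genes except those of Kupffer cell and cholesterol genes. Of the counts lower than in Ctrl_CE, acute phase genes went from 22 to 12 with voom and Kupffer cell markers from 21 to 7 under glmTreat, which also took endothelial markers higher than in MetR_RT from 18 to 1. Apart from the stricter question of glmTreat, why these counts moved was not tested.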
